A study of Mus musculus with 36 samples.

Results

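The comparison described here asked where loss of ERRalpha together with ERRgamma changed transcripts differently in 2 mouse muscles, soleus, a slow muscle, and extensor digitorum longus (EDL), a fast one. For each gene, the change in EDL (knockout minus wild type) was subtracted from the change in soleus, and the result is called the difference of changes. It is positive where soleus fell less or rose more than EDL, and negative where soleus fell more or rose less. Its members were the 12 libraries of the ERRalpha/ERRgamma class, out of 36 in the series, in 4 groups of 3: wild-type and knockout EDL, and wild-type and knockout soleus. The remaining 24 libraries came from a class lacking ERRbeta with ERRgamma and a class lacking ERRalpha alone, each with the same 4 groups of 3.

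All animals were males of 1 year of age on a C57BL/6JBom background, to which the floxed lines had been backcrossed for at least 10 generations, housed near 22 °C under 12 h of daily light. Knockouts carried floxed Esrra and Esrrg alleles and Cre recombinase driven by the human alpha-skeletal actin (HSA) promoter, and wild types were floxed littermates without Cre, so both genotypes had floxed alleles. The HSA promoter is known to act in muscle fibres, and deletion was not measured in any cell type here. Column names mark Cre as FXp and its absence as FX-, and every direction below rests on that reading. The 12 libraries came from 10 animals by the numbers in the column names, and only 2 animals, 1 of each genotype, gave both muscles. The other classes differed in this: in each of them 6 animals gave both muscles.

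Estrogen-related receptors are orphan nuclear receptors that bind DNA without a known natural hormone. ERRalpha and ERRgamma bind elements with the core AAGGTCA near genes of the respiratory chain, the tricarboxylic acid (TCA) cycle and fatty acid oxidation, and work with the coactivator PGC-1alpha. In skeletal muscle they are known for supporting mitochondrial content and oxidative capacity, and ERRgamma is known to be enriched in slow, oxidative muscle. The soleus is a postural muscle rich in slow oxidative fibres, whereas the EDL is mostly made of fast fibres.

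The deposited values were log2 signals, quantile normalised by the authors, so read depth cannot be read from them and levels are relative. Between 14033 and 14951 genes had a value in each of the 12 libraries, and knockout libraries had more than wild-type libraries of the same muscle without overlap (14379 to 14835 against 14033 to 14376 in EDL, 14751 to 14951 against 14316 to 14624 in soleus). Libraries of a group correlated with each other at 0.980 to 0.989 across genes. The muscles matched their labels: the summed linear signal of 6 slow-fibre markers was 16.9 to 77.8 in wild-type EDL and 12280 to 16260 in wild-type soleus, and that of 6 fast-fibre markers 16800 to 18960 and 4450 to 5894. In whole muscle, fewer cells of a type and less RNA per cell cannot be told apart.

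Of 13342 genes tested, 276 (2.07%) differed in their change between the muscles at a Benjamini-Hochberg adjusted p under 0.05 with limma, 200 (1.5%) with a positive and 76 (0.57%) with a negative difference. At an unadjusted p under 0.05 there were 1381 genes. The median difference over all genes tested was -0.0013. The negative count depended on single libraries and settings: it was 47, 48 and 49 without EDL knockouts 1, 2 and 3, 47 and 50 without EDL wild types 1 and 2, 48 without soleus wild type 2, 39 and 47 without soleus knockouts 2 and 3, and 193 with sample weights, which gave 315 positive calls. The 10 lists of mitochondrial genes had 272 of the genes tested, and 95 of the 200 positive calls and 1 of the 76 negative calls belonged to them. A fall in both muscles that was deeper in EDL held for 124 of the 200 positive calls. A further 37 fell in EDL and were not called in soleus, 34 changed in soleus alone, 4 fell in EDL and rose in soleus, and 1 was called in neither muscle. Of the 76 negative calls, 47 rose in EDL and were not called in soleus, and 18 changed in soleus alone. Among the other negative calls 4 rose in EDL and fell in soleus, 5 fell in both muscles with the larger fall in soleus, and 2 rose in both with the larger rise in EDL. The larger of the 2 changes was in EDL for 165 of the 200 positive and 51 of the 76 negative calls.

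Each muscle on its own changed widely. In EDL 2416 of 13358 genes tested were called (18.1%), 1487 higher and 929 lower in knockouts, and in soleus 1700 of 13385 (12.7%), 915 higher and 785 lower. These splits depended on centring: with each library recentred on its median the counts were 1009 higher and 1053 lower in EDL, and 551 higher and 910 lower in soleus. The median change over all genes was 0.13 in EDL and 0.11 in soleus. Of 1067 genes called in both muscles, 1059 changed in the same direction and 8 in opposite directions. Genes that fell in both (562) had a median difference of 0.21 and held 124 positive and 5 negative calls. Genes that rose in both (497) had a median difference of -0.063 and held 0 positive and 2 negative calls. Across all 13342 genes the change in soleus correlated with that in EDL at a Pearson r of 0.43, given as a description, since the libraries were separate but 2 animals were shared.

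**Figure D1:**
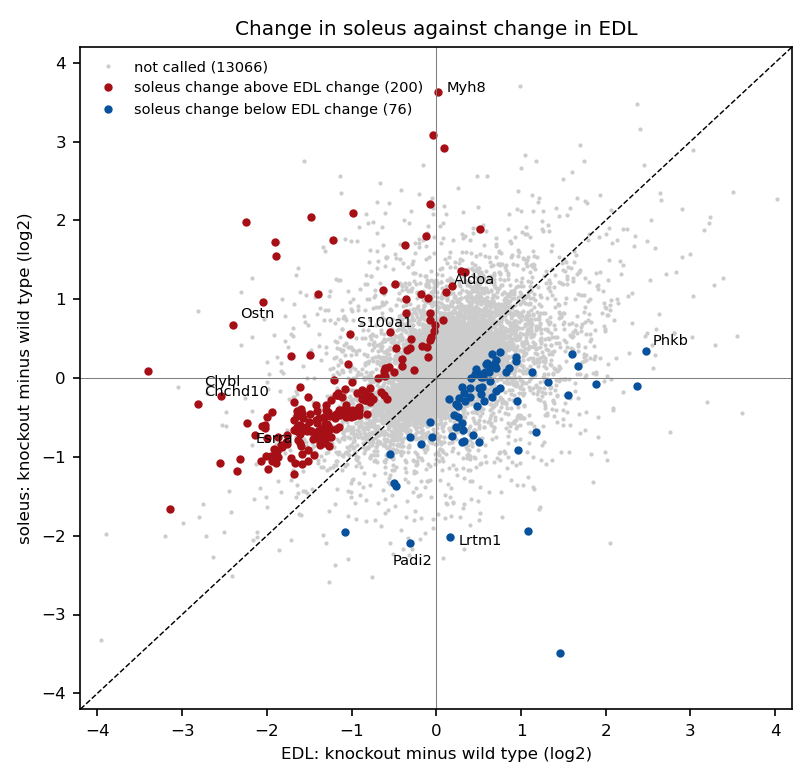
Change in soleus (vertical axis, knockout minus wild type, log2) against the change in EDL (horizontal axis, same unit), 1 point per gene, with means of 3 libraries per group; the dashed line marks equal changes. The 200 genes with a positive difference of changes (red) lie mostly in the lower left above the line, with a deeper fall in EDL, and the 76 with a negative difference (blue) lie below it.

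The targeted genes were examined first. Esrra encodes ERRalpha (GRCm38, chromosome 19, 6910977 to 6921813, minus strand). In EDL its log2 signal was 5.38, 5.33 and 5.26 in the wild-type libraries and 3.19, 2.90 and 3.20 in the knockout libraries. Soleus had 5.45, 5.66 and 5.95 in wild type and 5.12, 5.06 and 5.15 in knockout. The genotypes did not overlap in either muscle, but the soleus knockouts lay close below their wild types while the EDL knockouts lay far below. Esrra changed by -2.23 ± 0.116 (SE, n = 3 libraries per group throughout) in EDL, to 21.3% of wild type, and by -0.57 ± 0.116 in soleus, to 67.3%. Each SE in this text is from limma, with 1 moderated spread per gene shared by all 12 groups of the 36 libraries. It does not show the spread within the groups named. The difference of changes was 1.66 ± 0.164 (limma adjusted p = 5.69e-08). The targeted transcript itself differed between the muscles in the same direction as most of the genes below, and the part of this in the other results was not tested. Gene-level signals do not show whether Cre recombined the floxed alleles to the same extent in both muscles. Each difference of changes in this text therefore compares the labelled genotypes, and an unequal loss of the receptors cannot be told apart from an unequal response to their loss.

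Esrrg, the ERRgamma gene (chromosome 1, 187608791 to 188214885, plus strand), went the other way. Its signal in EDL was 0.96, 1.41 and 1.18 in wild type and 1.55, 2.08 and 1.45 in knockout, and in soleus 3.54, 3.64 and 3.86 in wild type and 4.92, 4.92 and 4.84 in knockout. The knockout libraries lay above the wild types in both muscles without overlap. The change was 0.51 ± 0.149 in EDL (adjusted p = 0.0154) and 1.21 ± 0.149 in soleus (adjusted p = 9.94e-07), and the difference of changes, 0.70 ± 0.211, did not pass (adjusted p = 0.093). It passed without EDL knockout 2 (0.89, adjusted p = 0.0118) and with sample weights (0.68, adjusted p = 0.0492). The signals are summed over a gene, so transcripts that lack the floxed exons cannot be told apart from intact ones, and the Esrrg values do not check the deletion. Wild-type soleus held more Esrrg than wild-type EDL, by 2.50.

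Esrrb, encoding ERRbeta, was not a target in these mice (chromosome 12, 86361117 to 86521628, plus strand). It was 0.05, 0.30 and 0.73 in wild-type EDL and -0.95, -1.35 and -1.41 in knockout EDL, a change of -1.60 ± 0.209. In soleus it was 2.88, 3.14 and 2.98 in wild type and 2.78, 2.66 and 2.41 in knockout, a change of -0.39 ± 0.209 that did not pass (adjusted p = 0.257). Its genotypes were far apart in EDL and nearly touched in soleus. The difference of changes was 1.21 ± 0.295 (adjusted p = 0.0215), and it lost its call without any 1 of 6 libraries: EDL wild type 3, EDL knockouts 2 and 3, soleus wild type 1, or soleus knockouts 1 and 2 (adjusted p up to 0.0893).

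Most nuclear genes of the respiratory chain and ATP synthase fell in both muscles, and 55 of them differed in their change with the deeper fall in EDL. Of 78 tested, 0 had a negative call and 75 a value above 0, with a median difference of 0.62. In EDL 75 of the 78 fell (6.95% of all genes tested fell there), with a median change of -1.29, or 41.0% of wild type. In soleus 66 fell (5.86% of all genes), with a median of -0.61, or 65.5%. In wild-type muscles the same genes stood at nearly equal levels, with a median soleus minus EDL difference of 0.061, and in knockouts soleus stood above EDL by a median of 0.72. Since the wild-type libraries enter the difference of changes, this is another view of the same data and not a second test.

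Complexes II and III with cytochrome c, which pass electrons from succinate and ubiquinone towards oxygen, had positive calls in 13 of 14 genes, with a median difference of 0.96. Their mean level relative to wild type of the same muscle was -1.62, -1.71 and -1.51 in the EDL knockouts and -0.77, -0.71 and -0.69 in the soleus knockouts. No soleus knockout library came near the EDL knockouts. Cyc1, cytochrome c1 of complex III, was 8.09, 8.30 and 8.25 in wild-type EDL and 6.06, 5.96 and 6.20 in knockout EDL. Soleus had 8.16, 8.24 and 8.32 in wild type and 7.48, 7.53 and 7.55 in knockout. The wild-type muscles overlapped and the knockout muscles did not. Its difference of changes was 1.42 ± 0.12 (adjusted p = 8.41e-09). Sdhd, a membrane anchor of succinate dehydrogenase, changed by -1.68 ± 0.095 in EDL and by -0.30 ± 0.095 in soleus, a difference of 1.38 ± 0.134. Cytochrome c, Cycs, differed by 1.24 ± 0.124 and Uqcr10, a small complex III subunit, by 0.92 ± 0.0889. The gene without a call was Uqcr11 (0.35), which fell in both muscles.

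ATP synthase, or complex V, had 13 positive calls among 15 genes and a median difference of 0.81. Atp5b, its catalytic beta subunit, was 10.15, 10.35 and 10.34 in wild-type EDL against 8.24, 8.14 and 8.41 in knockouts, and in soleus 10.60, 10.50 and 10.52 against 9.74, 9.91 and 10.08. Knockouts lay below wild types in each muscle, with the wider gap in EDL. It kept 24.7% of its wild-type signal in EDL and 64.6% in soleus, a difference of 1.39 ± 0.128 (adjusted p = 3.18e-08). Atp5o differed by 1.15 ± 0.105, Atp5g1 by 1.14 ± 0.111 and Atp5c1 by 0.92 ± 0.0891, all subunits of the same enzyme.

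Complex I, which oxidises NADH, had 21 positive calls among 36 genes and a median of 0.53. Ndufb5, an accessory subunit, was 7.83, 8.06 and 7.93 in wild-type EDL and 5.80, 5.90 and 6.06 in knockouts. Values in soleus were 7.99, 8.02 and 7.98 in wild type and 7.32, 7.49 and 7.39 in knockouts. The wild-type muscles were alike and the knockout muscles lay well apart, with a difference of changes of 1.42 ± 0.117 (adjusted p = 6.71e-09). Other accessory subunits followed with smaller values: Ndufa8 0.96 ± 0.0929, Ndufb6 0.95 ± 0.11 and Ndufb8 0.83 ± 0.0915. Among the 15 complex I genes without a call, values ran from -0.04 for Ndufa3 to 0.37 for Ndufa11.

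Complex IV, cytochrome c oxidase, had 8 positive calls among 13 genes and a median of 0.49. Cox7a2 differed by 1.16 ± 0.109, the muscle isoform Cox7a1 by 0.86 ± 0.117, Cox5b by 0.84 ± 0.104 and Cox5a by 0.64 ± 0.0849. Of subunit 6a, the muscle form Cox6a2 had 0.28 and the ubiquitous form Cox6a1 had -0.20, neither called, and Cox8b had -0.06.

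The TCA cycle and pyruvate dehydrogenase list had 19 positive calls among 24 genes and a median of 0.69, and all 24 values were above 0. Got2, the mitochondrial aspartate aminotransferase of the malate-aspartate shuttle, was 7.35, 7.63 and 7.51 in wild-type EDL and 5.53, 5.41 and 5.71 in knockouts, against 7.74, 7.93 and 7.92 and 7.60, 7.42 and 7.26 in soleus. Soleus knockouts lay only just under their wild types. It kept 26.0% in EDL and 73.9% in soleus, a difference of 1.51 ± 0.137 (adjusted p = 2.95e-08). Its cytosolic partner in the shuttle, Got1, had 1.22. Fumarase, Fh1, differed by 1.04 ± 0.104, the isocitrate dehydrogenase subunit Idh3b by 1.01 ± 0.0942 and the pyruvate dehydrogenase subunit Pdhb by 0.83 ± 0.0867.

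Most fatty acid oxidation genes fell in both muscles, with 1 call in the difference. Of 27 genes, 24 fell in EDL (median -1.07) and 23 in soleus (median -0.72), against 6.95% and 5.86% of all genes tested. The median difference of changes was 0.36, with 0 negative calls. The positive calls were 2 without EDL wild type 1, 3 without soleus knockout 1, 4 without EDL knockout 3 and 6 with sample weights. The called gene was Etfa, a subunit of the flavoprotein that takes electrons from acyl-CoA dehydrogenases, at 0.63 ± 0.138 (adjusted p = 0.0075). Values ran from -0.26 for the carnitine carrier Slc25a20 to 0.77 for the fatty acid transporter Cd36. At an unadjusted p under 0.05 there were 14 positive and 0 negative values. In wild types the list stood higher in soleus than in EDL by a median of 0.98. Catabolism of ketones and branched-chain amino acids had 2 positive calls among 20 genes (median 0.24): the ketone-using enzymes Oxct1, at 0.94 ± 0.184, and Acat1, at 0.69 ± 0.122.

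**Figure D2:**
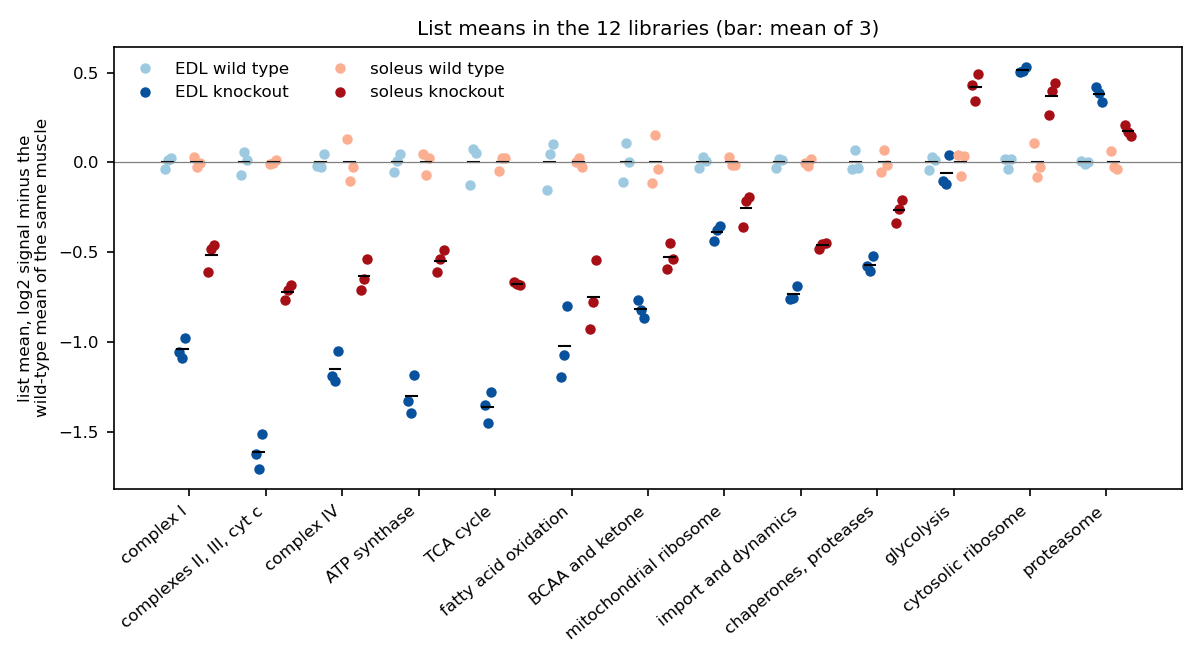
Mean log2 signal of the tested members of 13 gene lists in each of the 12 libraries, minus the wild-type mean of the same muscle; bars are means of 3 libraries. In the respiratory chain and TCA lists the EDL knockouts (dark blue) lie below every soleus knockout (dark red), in fatty acid oxidation the 2 muscles' knockouts overlap, and in glycolysis the soleus knockouts lie above all other libraries.

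Outside these lists, several single genes were among the 12 largest positive differences of called genes with a value in all 12 libraries, a mean level at or above the median and genotypes without overlap in at least 1 muscle. Chchd10 encodes a protein of the mitochondrial intermembrane space that is mutated in inherited motor neuron disease and myopathy (chromosome 10, 75933130 to 75937747, plus strand). In EDL it was 7.82, 7.77 and 7.64 in wild type and 4.97, 4.72 and 5.10 in knockout, 14.2% of wild type. Its soleus values were 7.47, 7.48 and 7.60 in wild type and 7.17, 7.21 and 7.18 in knockout, 79.4%. The groups were separate in both muscles. The difference of changes, 2.48 ± 0.125, had the lowest p of the genes named here (adjusted p = 5.79e-14).

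Ostn, encoding musclin, a peptide that muscle secretes, moved in opposite directions in value (chromosome 16, 27307489 to 27351212, plus strand). It was 5.81, 6.39 and 5.37 in wild-type EDL and 3.47, 3.17 and 3.74 in knockout EDL. In soleus it was 5.98, 6.57 and 6.24 in wild type and 6.87, 6.98 and 6.94 in knockout. Wild-type muscles overlapped, and the knockout muscles were the highest and lowest of the 4 groups. The fall in EDL was -2.40 ± 0.287, the soleus value of 0.67 ± 0.287 did not pass (adjusted p = 0.139), and the difference was 3.06 ± 0.406 (adjusted p = 9.99e-06). Clybl, a mitochondrial lyase, kept 17.1% in EDL and 85.6% in soleus, where the genotypes overlapped, a difference of 2.32 ± 0.294. Ephx2, the soluble epoxide hydrolase, and Barx2, a homeobox factor, fell in both muscles, with differences of 1.48 ± 0.272 and 1.46 ± 0.247. The mitochondrial RNA methyltransferase gene Trmt2b (1.50 ± 0.223) did the same, and the splicing factor gene Khdrbs3 (1.49 ± 0.255) fell in EDL alone.

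The promoters are shown for the ERR core element, the letters that ERR proteins are known to bind. RefSeq promoters of GRCm38.p6, taken from 250 bases before to 50 after the start site, were found for 59 of the 71 named genes and searched for AAGGTCA or its reverse complement TGACCTT. The motif was present in 404 of 10209 tested genes with a promoter (3.96%), and in 4.72% of all 32851 promoters. It was in 15 of 153 genes with a positive call (9.8%) and 2 of 56 with a negative call (3.57%). In the 7 oxidative lists it was in 7 of 64 genes with a positive call (10.9%) and 5 of 61 without a call (8.2%). The longer form TNAAGGTCA, which contains the core, was in 0.94% of tested genes and 1.96% of positive calls. A match is only a string of letters in this window, and its absence says nothing about binding elsewhere. Among called genes with a value in all 12 libraries, a mean level at or above the median and genotypes without overlap in at least 1 muscle, the 12 largest positive differences had 7 genes with a promoter in the table, and 0 of these held the motif. The 12 largest negative differences had 11 genes with a promoter, and 1 of these, Phyhd1, held it (9.09%). The 250 bases before the start of Chchd10 (chr10:75932880-75933129, plus strand) and of Esrra (chr19:6921809-6922058, minus strand) are shown as the gene with the lowest p and the target itself, in lower case because neither held a match. Trap1 (chr16:4077811-4078060, minus strand) is shown as a called gene with a match, in capitals, that begins 143 bases before the start.
Chchd10: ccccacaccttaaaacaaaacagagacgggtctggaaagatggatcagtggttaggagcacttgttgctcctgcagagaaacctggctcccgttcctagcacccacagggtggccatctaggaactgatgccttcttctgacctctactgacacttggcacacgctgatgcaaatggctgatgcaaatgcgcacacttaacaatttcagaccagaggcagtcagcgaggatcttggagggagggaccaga
Esrra: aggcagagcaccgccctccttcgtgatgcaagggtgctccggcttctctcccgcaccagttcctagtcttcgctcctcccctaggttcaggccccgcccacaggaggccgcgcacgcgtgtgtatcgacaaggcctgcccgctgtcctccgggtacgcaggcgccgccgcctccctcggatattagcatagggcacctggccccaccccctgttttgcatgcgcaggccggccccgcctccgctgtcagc
Trap1: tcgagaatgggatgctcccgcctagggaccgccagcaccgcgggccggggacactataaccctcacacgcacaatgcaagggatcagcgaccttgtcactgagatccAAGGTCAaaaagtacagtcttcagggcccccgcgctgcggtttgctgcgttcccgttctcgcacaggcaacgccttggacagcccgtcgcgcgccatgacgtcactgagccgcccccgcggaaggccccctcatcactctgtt
Sdhd and Mrpl12, also called, held the reverse complement just after the start site, beginning 36 and 33 bases past its first base. The 30 bases with each match in capitals lie at chr9:50603800-50603829 (minus strand) and chr11:120484657-120484686 (plus strand).
Sdhd: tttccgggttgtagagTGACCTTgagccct
Mrpl12: ttagagccgcgtgTGACCTTcccgcttgcg

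The mitochondrial ribosome list had 6 positive calls and 1 negative call among 77 genes (median 0.09). Of these genes 38 fell in EDL (6.95% of all genes tested) and 34 in soleus (5.86%). Without EDL knockout 1 there were 3 positive calls. Mrpl12 (1.06 ± 0.142), Mrps35 (1.03 ± 0.195) and Mrpl42 (0.74 ± 0.0942) had positive calls. The negative call was Mrpl14, which was 4.21, 4.42 and 4.35 in wild-type EDL and 3.82, 3.75 and 3.93 in knockouts, and in soleus 5.69, 5.41 and 5.34 against 3.98, 4.25 and 4.22. Its fall was wider in soleus, a difference of -0.84 ± 0.136 (adjusted p = 0.000222). Import and dynamics genes had 7 positive calls among 32 (median 0.17), Chchd10 included, with the translocase Timm17a at 0.87 ± 0.0923, the phosphate carrier Slc25a3 at 0.72 ± 0.107 and the sorting protein Samm50 at 0.62 ± 0.0983. Mitochondrial chaperones and proteases had 5 among 14 (median 0.25). These included the protease Afg3l2 (0.75 ± 0.116), the chaperones Hspa9 (0.67 ± 0.114) and Trap1 (0.66 ± 0.122), and prohibitin, Phb (0.55 ± 0.107).

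Regulators of mitochondrial biogenesis had 1 positive call among 20, the mitochondrial deacetylase Sirt3 (0.93 ± 0.203, adjusted p = 0.00773), and a median of -0.03. The coactivator gene Ppargc1a was 1.74, 1.89 and 1.56 in wild-type EDL and 2.33, 3.15 and 2.40 in knockouts, and 2.93, 2.68 and 3.70 against 5.13, 4.55 and 4.31 in soleus. It rose in soleus (1.56) and missed the threshold in EDL (0.90), but its difference, 0.66 ± 0.63, did not pass (adjusted p = 0.835). Perm1, another regulator that works with ERRs, fell in both muscles and had a difference of 0.38 ± 0.256 (adjusted p = 0.698). Antioxidant genes had 2 positive calls, Txn2 (0.61 ± 0.0962) and Prdx3 (0.48 ± 0.114), both mitochondrial thiol proteins, and 1 negative call, the quinone reductase Nqo1 (-0.88 ± 0.238, adjusted p = 0.0457), among 23 (median -0.04). Nqo1 kept its call without EDL wild type 3 or soleus wild type 3 and lost it without any 1 of the other 10 libraries (adjusted p up to 0.167). The Nqo1 call was also lost with the 12 libraries alone, with no filter, after recentring and with no intensity trend. Prdx3 lost its call without EDL wild type 2, EDL knockouts 1 or 2, or soleus knockout 2 (adjusted p up to 0.0649), and also with the 12 libraries alone and after recentring. Integrated stress response and mitokine genes had 0 calls among 20, with a median of 0.41 and 17 values above 0.

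Of 21 genes of glycolysis and lactate transport, 7 had a positive call and 0 a negative call, with a median of 0.36. The count was 4 without EDL wild type 2, EDL knockouts 1 or 2, or soleus knockout 3. In soleus 8 rose and 2 fell (6.84% and 5.86% of all genes tested did so). In EDL 0 rose and 2 fell (11.1% and 6.95% of all genes tested). Aldoa, muscle aldolase, was 11.49, 11.54 and 11.53 in wild-type EDL and 11.54, 11.54 and 11.80 in knockouts. Values in soleus were 10.30, 10.19 and 10.45 in wild type and 11.39, 11.21 and 11.62 in knockouts. Soleus knockouts thus lay near the EDL level. The difference was 0.98 ± 0.21 (adjusted p = 0.00622). Muscle enolase, Eno3, changed by 1.16 ± 0.145 in soleus and 0.19 ± 0.145 in EDL, a difference of 0.98 ± 0.205. Pgam2, muscle phosphoglycerate mutase, had 0.65 ± 0.151 and lost its call without soleus knockout 3 (adjusted p = 0.0515). Ldhb, the lactate dehydrogenase subunit typical of heart and oxidative muscle, followed another course: it changed by -1.49 ± 0.146 in EDL and did not pass in soleus (0.29 ± 0.146), a difference of 1.78 ± 0.206. The lactate transporter genes Slc16a3 (1.38) and Slc16a1 (0.84) and the muscle lactate dehydrogenase subunit Ldha (0.58) were also called.

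Glycogen metabolism had 0 positive calls and 1 negative call among 16 genes (median -0.06). That gene, Phkb, encodes the beta regulatory subunit of phosphorylase kinase, which activates glycogen breakdown (chromosome 8, 85840959 to 86061376, plus strand). It was 5.69, 5.68 and 5.60 in wild-type EDL and 8.05, 8.24 and 8.11 in knockout EDL. Soleus held 3.91, 3.76 and 3.84 in wild type and 4.19, 4.10 and 4.23 in knockout. EDL knockouts reached 555% of wild type, while the soleus value of 0.34 ± 0.146 did not pass. The difference was -2.13 ± 0.206 (adjusted p = 4.61e-08). The other subunits had values of 0.05 (Phkg1), 0.01 (Phka1) and -0.15 (Phkg2), none called.

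Genes that fell in soleus alone made up part of the negative side. Lrtm1, a membrane protein gene with leucine-rich repeats, was 3.83, 2.92 and 3.77 in wild-type EDL and 3.77, 3.58 and 3.66 in knockouts, which overlapped. In soleus it was 2.79, 2.20 and 1.91 in wild type and 0.29, 0.12 and 0.43 in knockouts, which did not. The difference was -2.19 ± 0.411 (adjusted p = 0.00145). Padi2, which converts arginine in proteins to citrulline, changed by -2.10 ± 0.316 in soleus and had -0.31 ± 0.316 in EDL, a difference of -1.79 ± 0.446 (adjusted p = 0.0255). Its call was lost without EDL wild type 1, EDL knockouts 1 or 3, soleus wild types 2 or 3, or soleus knockouts 2 or 3 (adjusted p up to 0.0956). Without soleus wild type 1, EDL wild type 2 or EDL knockout 3 the atrophy and growth list had 2 negative calls. Fbxo40, a muscle ubiquitin ligase component that targets the insulin receptor substrate, was the 1 negative call among 21 atrophy and growth genes (median -0.08). Its soleus change was -0.73 ± 0.116 and its difference -0.91 ± 0.163 (adjusted p = 0.000803). Snx4, a sorting nexin, changed by -0.73 ± 0.154 in soleus, with a difference of -1.15 ± 0.218. Tcp11l2 had a difference of -0.88 ± 0.204 and lost its call without knockout library 2 of either muscle (adjusted p up to 0.0575).

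Other negative calls rose in EDL alone. Phyhd1, an enzyme related to phytanoyl-CoA hydroxylase, was 0.75, 1.47 and 1.67 in wild-type EDL and 2.92, 2.70 and 3.30 in knockouts, and stood at 4.74, 4.48 and 4.71 against 4.84, 4.75 and 4.82 in soleus. The EDL knockouts moved towards the soleus level. Its difference was -1.52 ± 0.255 (adjusted p = 0.000342). Ppp1r1a, an inhibitor of protein phosphatase, rose by 1.32 ± 0.15 in EDL and had -0.06 ± 0.15 in soleus. Ttc9 rose by 1.60 ± 0.219 in EDL and Inpp4b, a phosphoinositide phosphatase, by 0.95 ± 0.19, with differences of -1.30 ± 0.309 and -1.24 ± 0.269. Ttc9 lost its call without EDL wild type 1, EDL knockout 2 or soleus knockout 3 (adjusted p up to 0.0781). Wild-type soleus stood above wild-type EDL for all 4 of these genes.

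In 8 genes the muscles changed in opposite directions, both past the threshold. S100a1, a calcium-binding protein of heart and skeletal muscle, was 6.77, 6.97 and 6.70 in wild-type EDL and 5.71, 5.88 and 5.80 in knockouts. Soleus values were 7.35, 7.58 and 7.71 in wild type and 7.98, 8.24 and 8.07 in knockouts. The genotypes were separate in both muscles with opposite order, and the difference was 1.57 ± 0.155 (adjusted p = 5.71e-08). Spsb3 changed by -0.48 ± 0.116 in EDL and by 0.38 ± 0.116 in soleus. In the reverse order, Parp4, a vault-associated ADP-ribosyltransferase, changed by 0.51 ± 0.151 in EDL and by -0.81 ± 0.151 in soleus. Cacna1s, the voltage sensor of excitation-contraction coupling, had 0.34 ± 0.0963 and -0.29 ± 0.0963, and Emc6, part of a membrane insertion complex of the endoplasmic reticulum, had 0.23 ± 0.0732 and -0.32 ± 0.0732. The other 3 genes, Kcnn2, Slc1a1 and Zfp30, had mean signals below the median of the genes tested. Fam57b, a membrane protein linked to ceramide synthesis, rose in soleus by 1.11 ± 0.304 and had -0.63 ± 0.304 in EDL, a difference of 1.74 ± 0.43 (adjusted p = 0.0238). Fam57b lost its call without any EDL knockout, EDL wild type 2, soleus wild type 2, or soleus knockouts 1 or 3 (adjusted p up to 0.0866).

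**Figure D3:**
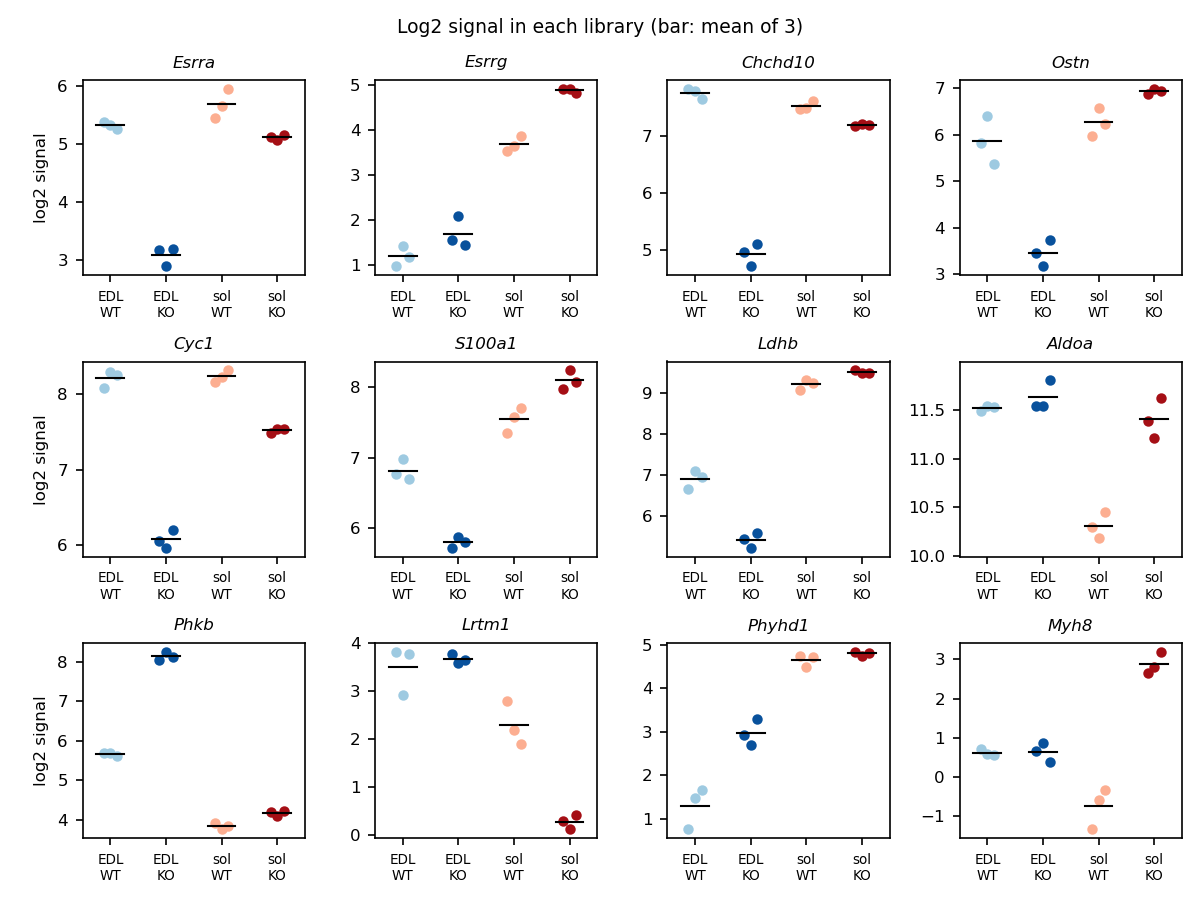
Log2 signal (vertical axis, own scale for each gene, not starting at 0) of 12 genes in each library of wild-type (WT) and knockout (KO) EDL and soleus (sol); bars are means of 3 libraries. Esrra, Chchd10 and Cyc1 fall far more in EDL, S100a1 moves in opposite directions, Aldoa and Myh8 rise in soleus, and Phkb and Phyhd1 rise in EDL.

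Proteasome and cytosolic ribosome genes rose in EDL and, in smaller number, in soleus, with most values of the difference below 0. Of 31 proteasome genes, 25 rose in EDL (11.1% of all genes tested rose there) and 13 in soleus (6.84%), and 30 had a difference below 0, with a median of -0.20. The 1 negative call was Psmb1, a subunit of the catalytic core, at -0.41 ± 0.091 (adjusted p = 0.00808), and 13 genes were negative at an unadjusted p under 0.05. Of 53 cytosolic ribosomal protein genes, 51 rose in EDL and 43 in soleus, and 48 had a difference below 0, with a median of -0.16. The 1 negative call was Rps13 (-0.49 ± 0.129, adjusted p = 0.0382). It kept its call without EDL knockout 3 or soleus knockout 3 or soleus wild type 3, and lost it without any 1 of the other 9 libraries (adjusted p up to 0.117). The Rps13 call was also lost with no intensity trend. The median difference was -0.0013 over all genes. Recentring each library lowered changes by 0.060 in EDL and 0.070 in soleus, and the difference of changes by 0.010. The part of normalisation in these values was not tested. Proteasome calls were 2 without soleus knockout 1 or EDL knockout 2 and 5 with sample weights, and they exceeded 1 in 5 settings. Ribosomal protein calls ran from 0 to 4 over the settings, with 4 under sample weights.

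Of 16 slow contractile genes 8 rose and 2 fell in EDL (11.1% and 6.95% of all genes tested did so). In soleus 2 rose and 1 fell (6.84% and 5.86% of all genes tested). The median difference was -0.45, with 0 calls by limma and 5 genes at an unadjusted p under 0.05. Without EDL knockout 2 there were 2 negative calls. The EDL libraries varied among themselves: Myh7, the slow myosin heavy chain, was -1.73, -1.96 and -1.42 in wild type and 3.71, -1.03 and 2.84 in knockout. EDL knockout 2 lay near the wild types and the other 2 far above. In soleus Myh7 was 9.32, 9.87 and 9.43 in wild type and 10.41, 10.10 and 9.70 in knockout. Its difference was -3.02 ± 1.33 (adjusted p = 0.392). Of 16 fast contractile genes, 0 were called in EDL (18.1% of all genes tested were). In soleus 4 rose and 1 fell, against the shares of all genes given above for soleus. In the difference 0 were called (3 at an unadjusted p under 0.05), with a median of 0.21. In 4 settings this list had 1 negative call, among them the fit without soleus knockout 3 and the filter at the median of gene means. Myh4, the fastest adult myosin heavy chain, was 7.18, 3.27 and 7.14 in wild-type soleus and between 6.70 and 8.41 in knockouts, which overlapped, and differed by 1.95 ± 1.52 (adjusted p = 0.77).

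Myh8, the perinatal myosin heavy chain that is re-expressed in regenerating or denervated fibres, was the 1 positive call among 19 neuromuscular junction and denervation genes (median -0.05; chromosome 11, 67277124 to 67308634, plus strand). It was 0.72, 0.58 and 0.55 in wild-type EDL and 0.68, 0.88 and 0.38 in knockout EDL. In soleus it was -1.34, -0.58 and -0.32 in wild type and 2.66, 2.80 and 3.19 in knockout. The genotypes overlapped in EDL and lay far apart in soleus. The soleus change was 3.63 ± 0.56 and the difference 3.60 ± 0.792 (adjusted p = 0.00813). The embryonic myosin gene Myh3 had a difference of 1.66 ± 0.763 (adjusted p = 0.427). Without EDL wild type 1 the list also had 1 negative call.

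Lists for other cell types and for handling held 0 calls in the difference by limma. The medians were 0.17 for 26 fibroblast and matrix genes, 0.64 for 22 leukocyte genes, 0.06 for 17 endothelial genes, 0.03 for 12 smooth muscle genes, 1.49 for 13 adipocyte genes, -1.35 for 10 Schwann cell genes, -0.48 for 5 red blood cell genes and -0.29 for 11 satellite cell and myogenic genes. Regulators of fibre type (19 genes) had -0.09, clock genes (16) -0.15 and immediate early genes (15) 0.21. At an unadjusted p under 0.05 there were 3 endothelial genes, 1 Schwann cell gene, 3 fibre type regulators, 2 clock genes and 2 of the integrated stress list, and 0 in the other 7 of these lists. Single calls appeared without EDL wild type 1 (endothelial), soleus wild type 2 (Schwann cell) and EDL wild type 3 (clock). Sample weights also gave 1 endothelial call, and 0.1 added on the linear scale gave 1 clock call. Fibre type regulators had 1 negative call in 2 settings, 1 of them the 12 libraries alone. All 22 leukocyte values were above 0. The summed signal of 5 leukocyte markers was 5.25 to 10.9 in wild-type and 11.4 to 13.7 in knockout soleus, without overlap, and 2.43 to 7.40 and 2.84 to 8.68 in EDL. The sum of 5 fibroblast markers was 196 to 392 and 404 to 478 in soleus, and 193 to 259 and 261 to 359 in EDL, also without overlap. The sum of 3 tendon markers was higher in knockout soleus, at 15.8 to 20.8 in wild type and 31.6 to 48.9 in knockout, and overlapped in EDL (33.0 to 37.7 and 25.7 to 42.3). The sum of 4 endothelial markers was lower in knockout soleus, at 60.8 to 62.9 in wild type and 47.3 to 54.9 in knockout, and overlapped in EDL (39.7 to 53.4 and 30.5 to 44.1). The sum of 2 satellite cell markers was 0.672 to 1.02 in wild-type and 1.07 to 1.69 in knockout EDL, without overlap, and overlapped in soleus. Sums for slow and fast fibres, smooth muscle, fat, Schwann cells and red blood cells overlapped between genotypes in both muscles. A sum follows its most abundant markers, and single fibre markers did change. The 6 slow-fibre markers had a median change of 1.61 in EDL with 4 called (18.1% of all genes), and 0.33 in soleus with 0 called. The 6 fast-fibre markers had a median change of 1.28 in soleus with 3 called (12.7% of all genes), and 0.08 in EDL with 0 called. Fat markers spread widely within groups (5.32 to 120 in wild-type soleus), as did Schwann cell markers (3.40 to 63.3 there) and red blood cell markers (240 to 3071 in wild-type EDL). The Schwann cell list mean was -0.88, -1.46 and 2.18 in wild-type soleus and -0.55, -1.15 and -0.64 in knockout soleus, so its median rested on soleus wild type 3. The leukocyte list mean was 0.31, 1.84 and 0.37 in wild-type EDL and 0.31, 0.49 and 1.54 in knockout EDL. Each of these markers had a value in at least 11 of the 12 libraries, and their part in the differences above was not tested. The sums themselves were not tested either, and overlap of 3 against 3 libraries is given as a description.

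**Figure D4:**
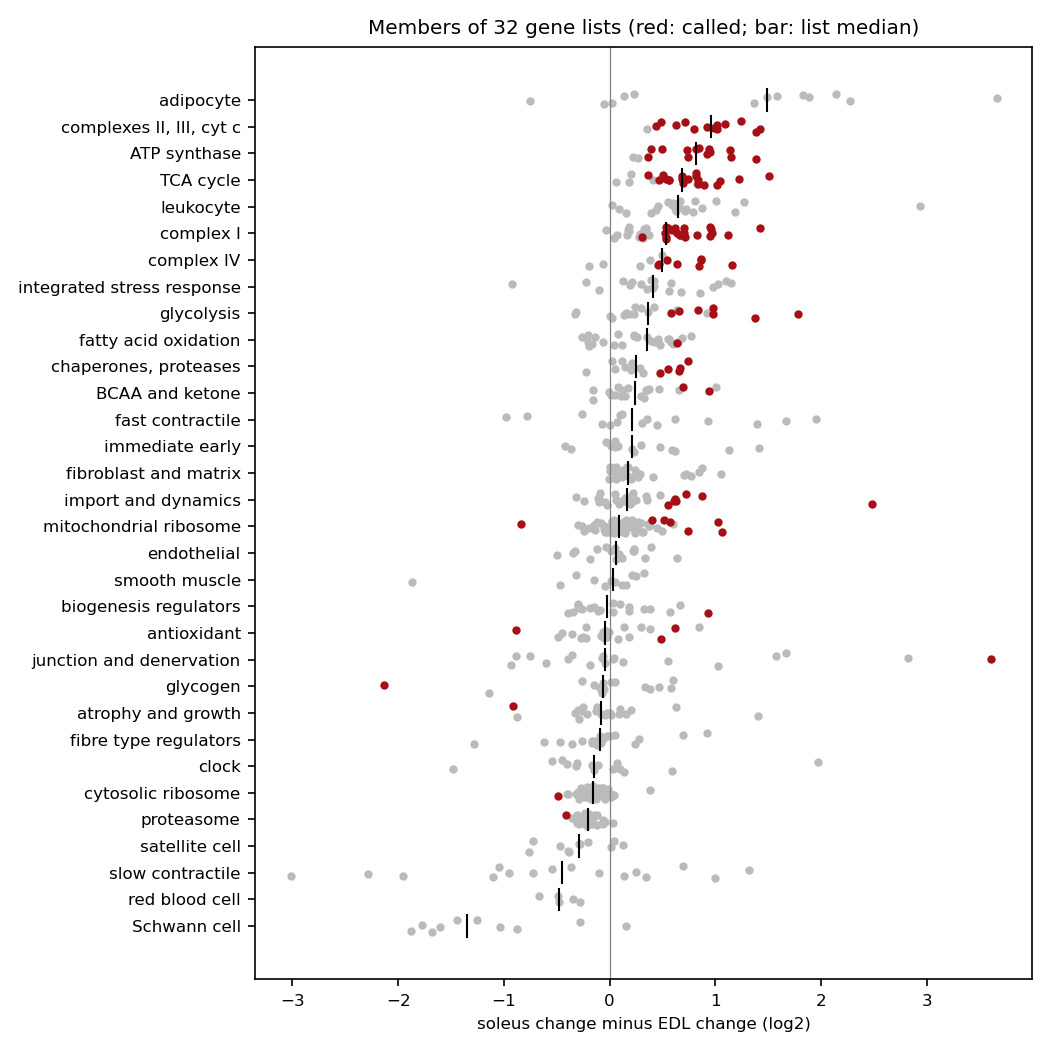
Difference of changes (soleus change minus EDL change, log2, horizontal axis) of each tested member of the 32 gene lists, ordered by list median (black bar); red points are called at an adjusted p under 0.05 and grey points are not. Red points crowd to the right in the respiratory chain, TCA and glycolysis lists, while the adipocyte, leukocyte and Schwann cell lists have medians far from 0 with no red point.

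The 2 muscles also differ without any knockout. Between wild types 4319 genes differed (32.3%) and between knockouts 5020 (37.5%). Of the 200 genes with a positive call, 47 were higher in wild-type soleus than in wild-type EDL, 45 were lower and 108 were not called. In knockouts 167 were higher, 10 lower and 23 not called. Of the 76 with a negative call, 34 were higher, 15 lower and 27 not called in wild types, and 14, 44 and 18 in knockouts. These counts use the same 12 libraries as the calls and are given as a description.

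The same difference of changes was computed in the other deletion classes. With loss of ERRbeta and ERRgamma 28 of 13305 genes were called (0.21%), 7 higher (0.0526%) and 21 lower (0.158%), and with loss of ERRalpha alone 2 of 13262 (0.0151%). The difference between classes was then tested directly. Against the ERRbeta/ERRgamma class 163 of 13269 genes differed (1.23%), 147 of them higher, and against the ERRalpha class 39 of 13229 (0.295%), 38 of them higher and 1 lower (0.00756%). Of the 200 genes with a positive call, 120 differed from the ERRbeta/ERRgamma class, 38 from the ERRalpha class and 35 from both. Of the 76 with a negative call, these counts were 4, 0 and 0. These tests reuse the 12 libraries that made the calls. They treated all libraries as separate, although in each of the other classes 6 animals gave both muscles. With the animal as a replicate block 190 genes differed from the ERRbeta/ERRgamma class and 49 from the ERRalpha class.

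Of the 78 respiratory chain and ATP synthase genes, 48 differed from the ERRbeta/ERRgamma class (1.11% of all genes tested were higher there) and 16 from the ERRalpha class (0.287%), all higher in the ERRalpha/ERRgamma class. The median difference of changes was 0.62 in the ERRalpha/ERRgamma class, -0.07 in the ERRbeta/ERRgamma class and 0.22 in the ERRalpha class. The ranges were -0.20 to 1.42, -0.39 to 0.15 and -0.14 to 0.43. For Chchd10 the values were 2.48, 0.10 and 0.33, and it differed from both other classes (adjusted p = 1.15e-09 and 1.38e-08). For Esrra they were 1.66, 0.10 and 0.52, again different from both (adjusted p = 0.000124 and 0.0158).

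Phkb and Lrtm1 had called differences of changes in another class too. Phkb had a difference of changes of -2.36 ± 0.206 in the ERRalpha class (adjusted p = 5.69e-08) and -0.07 in the ERRbeta/ERRgamma class. The value in the ERRalpha/ERRgamma class differed from the latter (-2.07, adjusted p = 6.14e-05) and did not pass against the former (0.22, adjusted p = 1). Lrtm1 had -2.08 in the ERRbeta/ERRgamma class (adjusted p = 0.0319) and -0.76 in the ERRalpha class. Its values in the ERRalpha/ERRgamma and ERRbeta/ERRgamma classes did not pass as different (-0.11, adjusted p = 0.977).

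**Figure D5:**
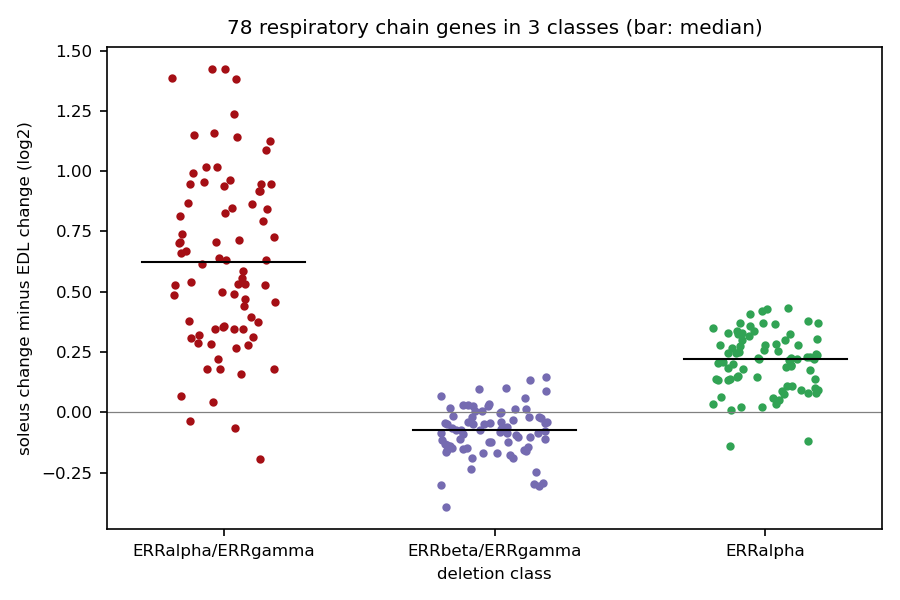
Difference of changes (soleus change minus EDL change, log2) of 78 respiratory chain and ATP synthase genes in the 3 deletion classes, 1 point per gene; bars are medians. The ERRalpha/ERRgamma class is spread from -0.20 to 1.42 with a median of 0.62, the ERRbeta/ERRgamma class lies around -0.07 and the ERRalpha class around 0.22.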

How the data were processed

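RNA of 36 muscle libraries (400 ng, 10 PCR cycles, directional, per the labels' protocols) was deposited as 1 table of log2 signals that the authors logged and quantile normalised, per the file headers and name. The submitters' processing notes name Partek 6.6 with GRCm38.p6 and mm10, with the aligner, counter and pre-log scale not given in the sources used here. Depth is therefore unknown, and the number of libraries limits the precision.

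Of 45802 gene rows, 27904 were empty, and 27 whose symbols had become dates were left out. The 13404 genes kept had a mean over all libraries above the 25th percentile (-5.24), where a missing value entered as -8.21, the lowest in the table. Missing values were not filled in, and there was no pseudocount. Columns were matched to groups by muscle, class and Cre mark. EDL columns of the ERRalpha class lack the class letters and were placed by animal numbers shared with soleus columns. Columns have no replicate number, so library numbers follow column order and are names only. The libraries of a group carry different animal numbers. The p-values rest on a moderated spread per gene, shared by all groups in the fit. They do not measure the spread between the animals of a named group alone.

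limma 3.58.1 in R 4.3.3 was fitted to all 36 libraries with 1 mean per group, an intensity trend and 24 residual degrees of freedom, after the code was tested on simulated data. Calls were made where the adjusted p (Benjamini-Hochberg, all genes of a contrast) was under 0.05. Lists are given by counts and medians, with no set test.

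Named genes were Esrra, Esrrb and Esrrg. To these were added, among called genes with a value in all 12 libraries, a mean at or above the median (1.59) and genotypes without overlap in at least 1 muscle, the 12 largest differences in each direction. Predicted-gene names aside, all 229 called genes that met the first conditions also met the overlap condition, which therefore selected nothing further. The share of all tested genes without overlap is not given, so a lack of overlap adds no support to a call. Up to 4 called members per list by lowest p, genes with opposite changes and the 6 lowest p among genes changed alike were also named. Other genes were named to fill in a list or a range, after their values were seen. The members and lists were chosen with earlier results of these data known. Coordinates are from GENCODE on GRCm38, the build of the authors' notes, and promoters from RefSeq on GRCm38.p6. Alternatives were the 12 libraries alone, other filters, missing values at the lowest value, an added 0.1 on the linear scale, recentring, no trend, robust fitting, sample weights, an animal block and leaving out each library.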

Additional observations from a re-analysis of the deposited data

Results flagged for a closer look

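The change with knockout differed between soleus and EDL in 276 of the 13342 genes tested. Of the 71 genes named by the rules given above, 23 also differed in this from both other deletion classes. Of all genes tested, 1.23% differed from the ERRbeta/ERRgamma class and 0.295% from the ERRalpha class. The share that differed from both is not given. Each value that follows is the difference of changes in the ERRalpha/ERRgamma class minus that in the ERRbeta/ERRgamma class, and then minus that in the ERRalpha class, on the log2 scale and past an adjusted p of 0.05 with limma in both. Esrra exceeded them by 1.57 and 1.14.

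Outside the oxidative lists the values were 2.52 and 3.68 for Ostn, 2.38 and 2.15 for Chchd10, 2.45 and 2.34 for Clybl, 1.18 and 2.05 for Ldhb, 0.97 and 1.21 for S100a1, 1.40 and 1.97 for Khdrbs3, and 0.87 and 0.76 for Timm17a. In complexes I to IV they were 1.59 and 1.20 for Ndufb5, 0.88 and 0.81 for Ndufb6, 1.51 and 1.20 for Cyc1, 0.90 and 0.62 for Uqcr10, 1.44 and 1.27 for Sdhd, 1.54 and 0.90 for Cycs, and 1.26 and 0.79 for Cox7a2. ATP synthase genes had 1.29 and 0.82 for Atp5o, 1.69 and 1.16 for Atp5b, 1.10 and 0.63 for Atp5c1, and 1.16 and 0.82 for Atp5g1. Genes of the TCA list had 1.30 and 1.23 for Got2, 1.07 and 0.67 for Idh3b, 1.10 and 0.85 for Fh1, and 0.90 and 0.72 for Pdhb. All 46 values were positive. Most of these genes were named for called differences in the same 12 libraries, and both values of a gene contain that difference. Of the 76 negative calls, 0 passed against both classes, so the shared sign is no separate result. No cause of these differences between classes was tested.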

How the results depend on the processing

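The count of 276 genes was 237 to 302 in the planned settings that left out no library of the class, other than sample weights. Sample weights gave 508 (315 positive, 193 negative, 273 of the 276 shared), and the cause was not tested. A similar count did not always mean the same genes. The 12 libraries of the class alone gave 246 genes (172 positive, 74 negative), and only 200 of these were among the 276. Sample weights also gave 424 genes against the ERRbeta/ERRgamma class and 74 against the ERRalpha class. Without 1 library in turn the interaction count was 199 to 255, with 156 to 194 positive and 39 to 69 negative genes. The count of 276 was 199 without soleus knockout 2, and the negative count, 76, fell under 51 without EDL knockouts 1, 2 or 3 (47, 48 and 49), EDL wild types 1 or 2 (47 and 50), soleus wild type 2 (48), or soleus knockouts 2 or 3 (39 and 47). The other ranges were 1871 to 2429 in EDL, 1234 to 1688 in soleus, 3450 to 4324 and 4206 to 5014 for soleus against EDL in wild types and knockouts, 107 to 174 and 29 to 47 between classes (107 without soleus knockout 2), and 90 to 111 for called list members (112). With the animal as a replicate block through an estimated correlation (0.14), chosen after seeing the data, 320 genes were called (226 positive, 94 negative), all 276 among them. A fixed replicate block could not be fitted, since only 2 of 10 animals gave both muscles. Those 2 pairs deviated together at 0.09 and 0.11. List counts ranged from 18 to 27 for complex I, 11 to 14 for complexes II and III, 6 to 10 for complex IV, 11 to 13 for ATP synthase, 14 to 21 for TCA, 1 to 6 for fatty acid oxidation and 4 to 9 for glycolysis. Of 70 named genes with a call, 61 kept it in all 22 settings and 0 reversed. The other 9 were Esrrb, Fam57b, Padi2, Ttc9, Nqo1, Tcp11l2, Pgam2, Prdx3 and Rps13.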

Other observations

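Of the 276 called genes, 94 of the 200 positive and 70 of the 76 negative calls were in none of the 32 lists. The genes below are single examples chosen from these after their values were seen, and they stand for no group. Ckmt2, the mitochondrial creatine kinase of muscle, changed by -1.77 in EDL and -0.81 in soleus, a difference of 0.96 ± 0.175. Coq9 and Adck3, both needed to make coenzyme Q, had differences of 1.02 ± 0.137 and 0.94 ± 0.205. Ppif, the cyclophilin of the permeability transition pore, had 0.87 ± 0.206, and Cluh, which binds mRNAs of mitochondrial proteins, had 0.67 ± 0.134. The assembly factor genes of the respiratory chain given as examples were Ndufaf4 (0.68 ± 0.161), Cox10 (0.59 ± 0.159) and Uqcc1 (0.49 ± 0.122). Pdk2, which inhibits pyruvate dehydrogenase, changed by -0.88 in EDL and -0.16 in soleus, a difference of 0.72 ± 0.151. Phyh, the peroxisomal phytanoyl-CoA hydroxylase, kept 20.2% of its wild-type signal in EDL and 49.0% in soleus, whereas its relative Phyhd1, described above, had a negative difference.

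The examples with a negative difference were chosen in the same way. Pomp, a chaperone of proteasome assembly, changed by 0.76 in EDL and 0.33 in soleus (difference -0.43 ± 0.105). Skp1a and Tceb2, adaptor subunits of ubiquitin ligases, had differences of -0.54 ± 0.104 and -0.48 ± 0.124. The translation factors Eef1g and Eif3e had -0.40 ± 0.0982 and -0.36 ± 0.0961. Me3, the mitochondrial malic enzyme, fell in both muscles with the larger fall in soleus, changing by -1.08 in EDL and -1.95 in soleus (difference -0.87 ± 0.185).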
